A study of Mus musculus with 6 samples.

Results

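The proteins that let a heart muscle cell contract are made from a small set of genes, and 10 of them were read here in cells that come from the lung: *Actc1*, *Tnnt2*, *Tnni3*, *Myh6*, *Myh7*, *Myl7*, *Ttn*, *Actn2*, *Ryr2* and *Nppa*. They were taken by gene symbol from a table of 21999 genes, of which 9 of the 10 have a row. *Myh6*, the fast cardiac myosin heavy chain, has none and was not analysed here. The table holds no row with 0 reads over the 6 libraries, and 13609 of its genes passed the filter on low counts that precedes the test, among them 1 of the 10.

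Total RNA was sequenced from cultures labelled lung microvascular endothelial cells, the cells that line the small vessels of the lung, of untreated SV129/B6 mice. There were 3 isolations from Ptprz1+/+ mice and 3 from Ptprz1-/- mice, which by their label lack the receptor tyrosine phosphatase PTPRZ1, and lungs of 2 to 5 mice aged 3 to 8 weeks went into each isolation. All were grown in medium with serum, endothelial growth supplement and heparin, and at confluence were sorted with magnetic beads that bind CD31, an endothelial surface protein. The libraries held 14496881 to 17709663 reads counted on genes. Markers went against the label in part, since fibroblast transcripts were far above endothelial ones. The median of 10 fibroblast genes was 191 to 614 CPM (counts scaled to library size) in the 6 libraries. That of 12 endothelial genes was 1.27 to 2.17 CPM in 4 libraries and 9.48 and 32.7 in the others. In FPKM, which also divides by gene length, the medians of the genes' means were 64.5 and 3.65. *Eng*, the highest of the endothelial genes in FPKM, had 961 to 2249 reads in the 6 libraries.

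In heart muscle, thin filaments of actin carry the troponin complex, which lets myosin of the thick filament pull on actin when calcium is released from the sarcoplasmic reticulum. Titin spans from the Z-disc to the middle of the sarcomere, and alpha-actinin cross-links actin at the Z-disc. Transcription factors such as GATA4, TBX5, NKX2-5, MEF2 proteins and SRF with its partner myocardin drive these genes in the heart. Several of those factors, GATA4 and TBX5 among them, are also read in the lung cultures, and the question here was whether the muscle genes accompanied them.

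The 5′ flanks of 4 of the genes are printed because they carry the letters that the factors read in these cultures are known to bind. They are RefSeq sequences of GRCm38.p6 that end at or just before the annotated transcription start, with exon bases left out, and all 10 genes matched the RefSeq table. Capitals mark matches on either strand to GATAA (GATA factors), GGTGTGA (T-box factors), CATTCC (the MCAT element of TEAD factors) or the CArG box (SRF). *Tnnt2* is shown at chr1:135836084-135836333 (plus strand), *Nppa* at chr4:148000472-148000721 (plus strand), *Myl7* at chr11:5898783-5899032 (minus strand) and *Actc1* at chr2:114052888-114053125 (minus strand).
Tnnt2: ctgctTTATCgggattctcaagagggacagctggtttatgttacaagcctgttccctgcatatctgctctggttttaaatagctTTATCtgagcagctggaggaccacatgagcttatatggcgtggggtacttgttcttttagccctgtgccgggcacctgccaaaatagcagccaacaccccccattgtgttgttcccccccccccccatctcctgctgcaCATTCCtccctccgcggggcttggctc
Nppa: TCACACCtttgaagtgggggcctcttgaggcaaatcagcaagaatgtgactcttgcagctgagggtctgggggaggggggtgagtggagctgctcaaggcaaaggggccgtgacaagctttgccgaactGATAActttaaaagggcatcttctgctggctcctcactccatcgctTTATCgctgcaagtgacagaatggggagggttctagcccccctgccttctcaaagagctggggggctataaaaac
Myl7: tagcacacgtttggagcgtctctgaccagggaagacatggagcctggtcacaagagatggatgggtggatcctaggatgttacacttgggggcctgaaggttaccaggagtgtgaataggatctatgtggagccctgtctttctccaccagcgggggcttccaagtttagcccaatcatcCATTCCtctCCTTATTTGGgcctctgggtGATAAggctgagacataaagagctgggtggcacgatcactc
Actc1: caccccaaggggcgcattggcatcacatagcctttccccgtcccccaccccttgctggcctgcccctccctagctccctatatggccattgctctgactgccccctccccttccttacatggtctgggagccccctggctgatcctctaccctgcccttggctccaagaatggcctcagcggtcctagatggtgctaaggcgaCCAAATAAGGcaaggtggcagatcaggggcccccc

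Of *Tnnt2* and *Myh7*, RefSeq lists a second start, whose windows held no further match outside exons. The 250 bases before the start held a match in 8 of the 10 genes, and in *Actn2* and *Ryr2* none of the 5 motifs was found. GATAA was present upstream of *Tnnt2*, *Nppa* and *Myl7*, against 22.6% of 32851 mouse promoters of the same length. CATTCC lay upstream of *Tnnt2*, *Myl7*, *Myh6* and *Myh7*, and 12.6% of all promoters hold it. The CArG box of *Actc1* and of *Myl7* is a motif found in 1.47% of promoters, and the MEF2 site of *Ttn* one found in 2.92%. GGTGTGA, found in 3.33%, matched in *Nppa* and in *Tnni3*, in the latter inside an annotated exon. None of the motifs shares letters with another in these windows. A match is a string of letters and was not tested as a binding site.

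**Figure D1:**
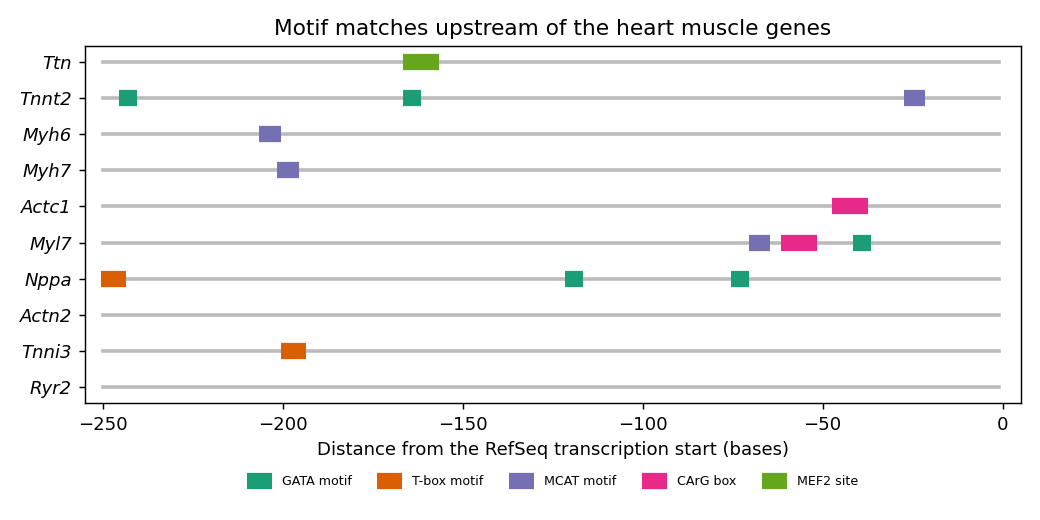
Matches of 5 motifs in the 250 bases upstream of the RefSeq transcription start of each of the 10 genes (horizontal axis in bases, 0 at the start). *Nppa* and *Tnnt2* carry 3 matches each, *Myl7* also has 3, and *Actn2* and *Ryr2* have none.

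The muscle genes were close to the lower limit of detection in these cultures. Of the 9 with a row, 5 had fewer than 10 reads in every library (55.6%, against 31.7% of all rows), and 4 of those never exceeded 3 reads. FPKM values divide reads by gene length and library total and so allow levels of different genes to be compared, and the median of the genes' mean FPKM was 0.0335, against 1.58 over all 21999 rows. In order of mean FPKM the genes ran *Tnni3* (2.63), *Tnnt2* (0.555), *Myl7* (0.390), *Actc1* (0.0941), *Nppa* (0.0335), *Actn2* (0.0312), *Myh7* (0.0102), *Ttn* (0.00627) and *Ryr2* (0.00623). The ranges over the 6 libraries of neighbours in this order overlapped throughout, and the place of *Tnnt2* rests on Ptprz1+/+ replicate 3. *Tnni3* was above 54.7% of all rows, *Tnnt2* above 41.0%, and *Ttn* and *Ryr2* above 3.06% and 3.03%. Few cells with much of a transcript and many cells with little of it cannot be told apart in such bulk RNA.

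**Figure D2:**
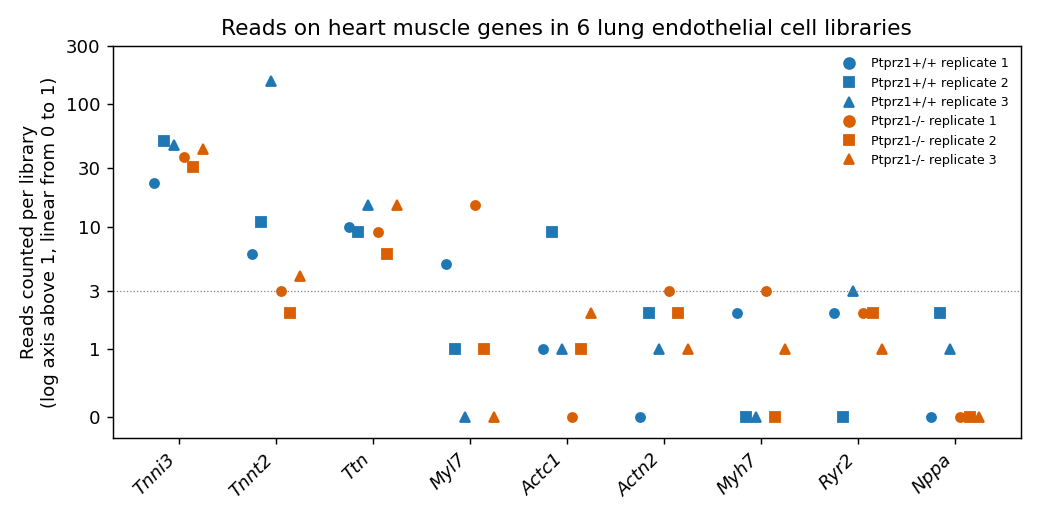
Reads counted on each heart muscle gene (vertical axis, log scale above 1 and linear from 0 to 1) in the 3 Ptprz1+/+ libraries (blue) and the 3 libraries labelled Ptprz1-/- (orange), with a shape for each replicate and a dotted line at 3 reads. *Tnni3* had 23 to 50 reads throughout, *Tnnt2* had 156 in Ptprz1+/+ replicate 3 alone, and *Nppa* had at most 2.

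No gene of the whole table passed the test between the genotypes. With p-values adjusted by the Benjamini-Hochberg method, the quasi-likelihood test of edgeR called 0 of 13609 genes (0.0%) at 0.05, and 366 (2.69%) had an unadjusted p under 0.05. DESeq2 called 31 of 16398 (0.189%), none of them one of the muscle genes, of which it gave 4 an adjusted p. Among genes tested, 7.28% had groups that did not overlap. *Ptprz1* itself did not separate the groups: it had 197, 1837 and 508 reads in the Ptprz1+/+ libraries and 1138, 1320 and 895 in those labelled Ptprz1-/-. Which part of the gene the Ptprz1-/- mice lack is not given in the sources used here. Counts over the whole gene therefore cannot check the genotype, and a direction between the genotypes below is one between labels. With 3 libraries against 3, an exact two-sided permutation test cannot go below 0.10.

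Of the thin filament genes, *Tnni3*, which encodes the inhibitory subunit of cardiac troponin, was the highest of the muscle genes and the only one tested. *Tnni3* (ENSMUSG00000035458, chr7:4518305-4524229 on GRCm38, minus strand) had 23, 50 and 47 reads in Ptprz1+/+ replicates 1, 2 and 3. In libraries labelled Ptprz1-/- it had 37, 31 and 43. The groups overlapped, and the lowest library of all was Ptprz1+/+ replicate 1. Scaled to the TMM-adjusted library size as CPM, this was 2.37 ± 0.854 (SD, n = 3) and 2.42 ± 0.373 (SD, n = 3). The log2 difference of *Tnni3*, Ptprz1-/- minus Ptprz1+/+, was 0.03 (standard error 0.37, 95% interval -0.87 to 0.93, edgeR adjusted p = 1.00), and its exact permutation p was 0.90.

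*Tnni3* shares 86 of its 2063 exon bases on the same strand with *Dnaaf3*, a dynein assembly factor of motile cilia. *Dnaaf3* had 40, 62 and 39 reads in the Ptprz1+/+ libraries and 65, 49 and 39 in those labelled Ptprz1-/-, a range close to that of *Tnni3*. Reads of the shared stretch cannot be assigned to either gene from a count. Over the 6 libraries the genes most like *Tnni3* in log2 CPM, of 13608 compared, were *Cyp39a1* (Pearson r 0.996), *Zfp963* (0.993) and *Vps37d* (0.969), a description over 6 points picked as the highest of many.

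*Tnnt2*, the tropomyosin-binding subunit of cardiac troponin (ENSMUSG00000026414, chr1:135836354-135852260, plus strand), differed from the other genes by 1 library. It had 6, 11 and 156 reads in Ptprz1+/+ replicates 1, 2 and 3. In libraries labelled Ptprz1-/- it had 3, 2 and 4. A Poisson interval of 95%, which covers counting error only, ran from 132 to 182 for the 156 reads. It ran from 1.09 to 10.2 for the 4 reads of Ptprz1-/- replicate 3 and from 2.20 to 13.1 for the 6 of Ptprz1+/+ replicate 1. The intervals of the 4 and the 6 reads overlapped, so the nearest libraries of the groups were within counting error of each other. The 2 groups did not overlap, as was so, with Ptprz1-/- lower, in 3.39% of all rows. *Tnnt2* was the only muscle gene of which this held. The means were 3.60 ± 5.40 and 0.196 ± 0.064 CPM (SD, n = 3 each, exact permutation p = 0.10, the smallest that can be reached).

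*Tnnt2* did not pass the filter on low counts. Without the filter edgeR's quasi-likelihood test gave a log2 difference of -4.15 (standard error 1.32, unadjusted p = 0.0138, adjusted p = 0.923 over 21999 genes), while 553 genes (2.51%) had an unadjusted p under 0.05 and 0 (0.0%) an adjusted one. When Ptprz1+/+ replicate 3 was left out as well, the *Tnnt2* difference was -1.27 (standard error 0.82, unadjusted p = 0.160, adjusted p = 0.923). DESeq2 gave -4.21 and no p-value. The size of the difference therefore rested on Ptprz1+/+ replicate 3, and no call was made with or without it.

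The same library stood apart in its endothelial transcripts. The endothelial median of 32.7 CPM was that of Ptprz1+/+ replicate 3, and the 9.48 CPM that of Ptprz1-/- replicate 3. *Pecam1*, which encodes CD31, was 91.0 CPM in Ptprz1+/+ replicate 3 and 32.4 in Ptprz1-/- replicate 3 (2.81-fold). *Cdh5*, the cadherin of endothelial junctions, was 3.24-fold and *Emcn*, an endothelial sialomucin, 4.02-fold higher in the former. Not every endothelial gene of the list was compared between these libraries. *Tnnt2* was 9.84 and 0.264 CPM in those libraries, 37.3-fold apart. Ptprz1+/+ replicate 3 was also set against the highest of the replicates numbered 1 and 2. There it was 16.3-fold higher for *Tnnt2*, and 13.9-, 17.3- and 20.7-fold for *Cdh5*, *Emcn* and *Pecam1*. The part of the endothelial content in the *Tnnt2* value was not tested.

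**Figure D3:**
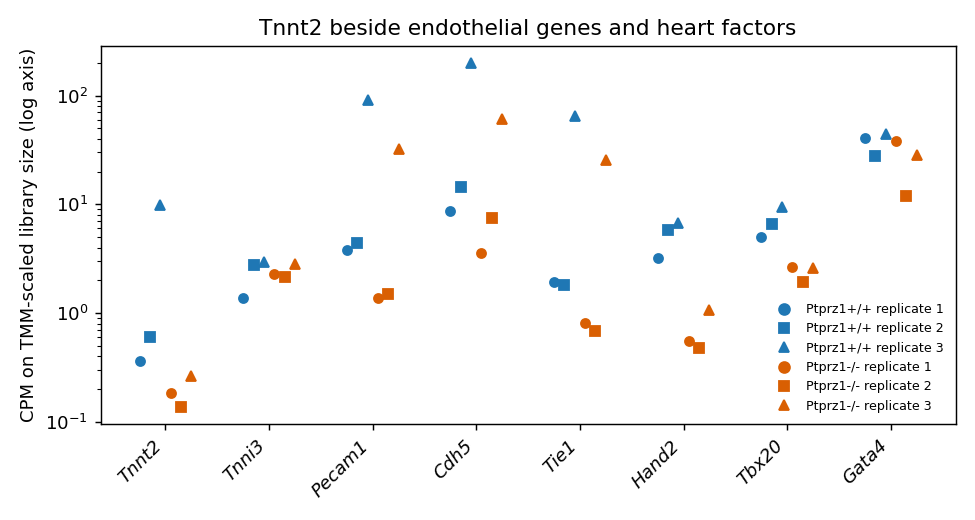
CPM on a log axis of *Tnnt2* and *Tnni3* beside endothelial genes (*Pecam1*, *Cdh5*, *Tie1*) and heart factors (*Hand2*, *Tbx20*, *Gata4*), 1 point a library, blue for Ptprz1+/+ and orange for libraries labelled Ptprz1-/-. Both replicates numbered 3 (triangles) are high for the endothelial genes, while *Tnnt2* is high in Ptprz1+/+ replicate 3 (9.84 CPM) and at 0.264 CPM in Ptprz1-/- replicate 3.

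*Actc1*, cardiac alpha-actin (ENSMUSG00000068614, chr2:114047282-114053548, minus strand), had 1, 9 and 1 reads in the Ptprz1+/+ libraries and 0, 1 and 2 in those labelled Ptprz1-/-. The 9 reads of Ptprz1+/+ replicate 2 were its highest, and the groups overlapped (exact permutation p = 0.70). It made up 0.00502% ± 0.00683 (SD, n = 6 libraries) of the summed FPKM of the 6 actin genes, and at most 0.0184%. Without Ptprz1+/+ replicate 2 the *Actc1* share was 0.00235%. The cytoskeletal actins *Actb* and *Actg1* had mean FPKM of 953 and 689, and smooth muscle actin *Acta2* 499, ranging from 83.6 to 1188 between libraries. The *Actc1* transcript aligned to that of skeletal *Acta1* over 1117 bases at 86.4% identity and to *Actb* over 1042 at 84.5%. How reads that fit several actins were counted is not given in the sources used here, so single reads on *Actc1* are uncertain.

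Of the thick filament genes, *Myh7*, the slow cardiac myosin heavy chain (ENSMUSG00000053093, chr14:54970688-54994634, minus strand), had 2, 0 and 0 reads in Ptprz1+/+ and 3, 0 and 1 in libraries labelled Ptprz1-/-. It was thus absent from the counts in 3 of 6 libraries, where 0 reads allow, by a one-sided limit, up to 3, or 0.165 to 0.206 CPM over the 6 libraries. *Myh7* held 0.00351% ± 0.00448 (SD, n = 6) of the summed FPKM of 11 myosin heavy chains, of which non-muscle *Myh9* (239 FPKM) and *Myh10* (32.5) and smooth muscle *Myh11* (3.69) were the highest. Without Ptprz1-/- replicate 1 the *Myh7* share was 0.00199%. The transcripts of *Myh6* and *Myh7* align over 562 bases at 97.9% identity, so reads from that stretch could be assigned to either.

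*Myl7*, the atrial regulatory light chain (ENSMUSG00000020469, chr11:5896637-5898782, minus strand), had 5, 1 and 0 reads in Ptprz1+/+ and 15, 1 and 0 in libraries labelled Ptprz1-/-. Both replicates numbered 1 were the highest of their group and both numbered 3 had none, and the groups overlapped (exact permutation p = 0.70). Both replicates numbered 1 also had the highest summed CPM of 16 smooth muscle and pericyte genes, 5865 in Ptprz1+/+ and 5503 in the library labelled Ptprz1-/-, against 1975 to 3006 in the others, and Ptprz1-/- replicate 1 had the highest median of 6 mesothelial genes, 248 CPM against 2.501 to 41.9. The part of those cells in the *Myl7* reads was not tested. *Myl7* held 0.0310% ± 0.050 (SD, n = 6) of the summed FPKM of 10 myosin light chains, with a highest share of 0.130% in Ptprz1-/- replicate 1. It was 0.0114% without that library and 0.0175% on counts with no length scaling. The non-muscle and smooth muscle light chains *Myl6* (719 FPKM) and *Myl12a* (251) led that family.

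*Ttn*, the gene of titin (ENSMUSG00000051747, chr2:76703980-76982547, minus strand), had 10, 9 and 15 reads in Ptprz1+/+ and 9, 6 and 15 in libraries labelled Ptprz1-/-. These are the third highest reads of the muscle genes, but *Ttn* was never above 0.00969 FPKM. The length by which its FPKM divides is 106824 bases, the greatest such length of the list. The groups overlapped (exact permutation p = 0.80). *Actn2*, the alpha-actinin of the heart Z-disc (ENSMUSG00000052374, chr13:12269426-12340760, minus strand), had 0, 2 and 1 reads in Ptprz1+/+ and 3, 2 and 1 in libraries labelled Ptprz1-/-. The groups overlapped (exact permutation p = 0.20), and *Actn2* held 0.0113% ± 0.00692 (SD, n = 6) of the summed FPKM of 4 alpha-actinins. The non-muscle forms *Actn1* (161 FPKM) and *Actn4* (122) held nearly all of it.

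*Ryr2*, the calcium release channel of the cardiac sarcoplasmic reticulum (ENSMUSG00000021313, chr13:11553103-12106945, minus strand), had 2, 0 and 3 reads in Ptprz1+/+ and 2, 2 and 1 in libraries labelled Ptprz1-/-. The groups overlapped (exact permutation p = 0.80). It held 0.0304% ± 0.0181 (SD, n = 6) of the summed FPKM of 6 intracellular calcium release channels, in which the IP3 receptors *Itpr3* (11.4 FPKM) and *Itpr1* (6.17) were highest. On counts with no length scaling the *Ryr2* share was 0.0524%. *Nppa*, the gene of atrial natriuretic peptide, a hormone of stretched atrial muscle (ENSMUSG00000041616, chr4:148000722-148002079, plus strand), had 0, 2 and 1 reads in Ptprz1+/+ and 0 in each library labelled Ptprz1-/-. Its groups overlapped at 0 (exact permutation p = 0.40), and 532 of its 865 exon bases are antisense to *Gm13054*, which had 3, 2 and 2 reads in Ptprz1+/+ and 2, 5 and 1 in libraries labelled Ptprz1-/-. The use of strand in counting is not given in the sources used here, so reads of the pair cannot be told apart.

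**Figure D4:**
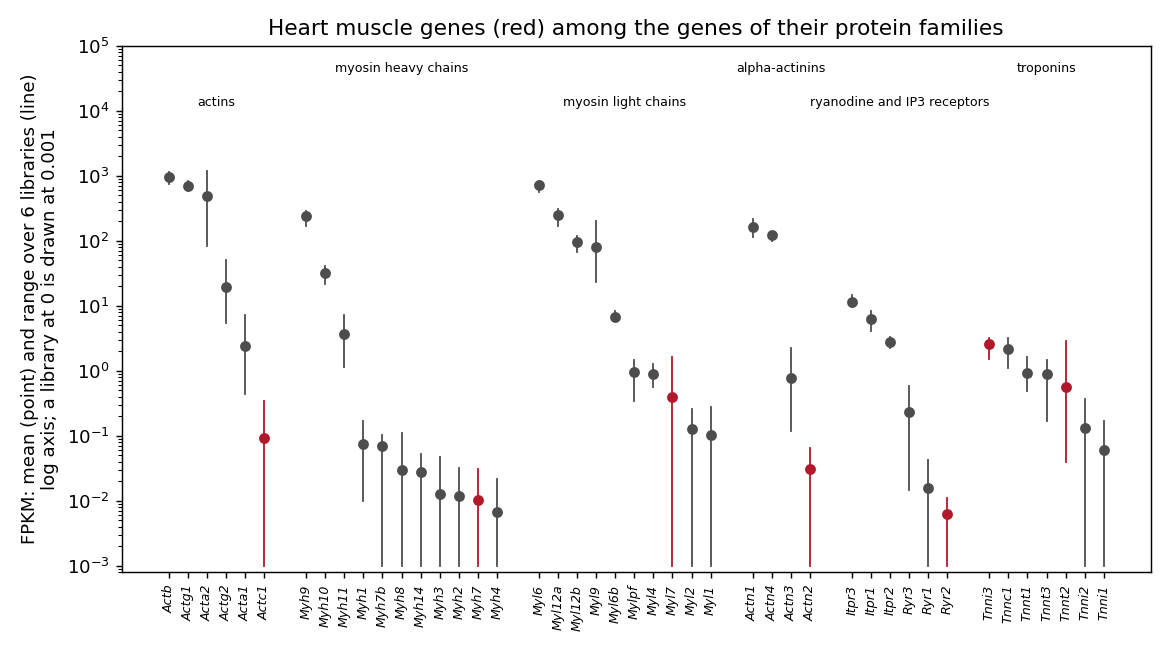
Mean FPKM (points) and range over the 6 libraries (lines) on a log axis for the genes of 6 protein families, with the heart muscle genes in red and a library at 0 drawn at 0.001. *Actc1*, *Actn2* and *Ryr2* are the lowest of their families, *Actb* reached 953 and *Actc1* 0.0941, and *Tnni3* (2.63) is the highest of the troponins.

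Among the troponins *Tnni3* and *Tnnc1* were highest per length. *Tnnc1*, the calcium-binding subunit of slow and cardiac muscle, was read at 2.13 FPKM (13 to 39 reads), and *Tnnt1* of slow skeletal muscle at 0.929 (8 to 25 reads). *Tnnc1* and *Tnnt1* passed the filter and were not called (log2 differences 0.21, standard error 0.48, and 0.01, standard error 0.54, edgeR adjusted p = 1.00 for each).

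Summed over the muscle genes, reads were 49, 84 and 224 in Ptprz1+/+ and 72, 45 and 67 in libraries labelled Ptprz1-/-. *Tnnt2* made the difference of Ptprz1+/+ replicate 3, since the sum without it was 43, 73 and 68 against 69, 43 and 63. Without *Tnni3* as well, the remaining genes had 20, 23 and 21 reads against 32, 12 and 20, of libraries of at least 14496881.

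The heart factors stood at other levels in the same libraries. Of 20 listed, 19 have a row, and 14 of those had at least 10 reads in every library, against 1 of the 9 muscle genes. The median of their mean FPKM was 4.71, against 0.0335 for the muscle genes. Their summed FPKM was 147, 143 and 166 in Ptprz1+/+ and 161, 148 and 159 in libraries labelled Ptprz1-/-, while that of the muscle genes was 2.17, 3.90 and 6.15 and 4.40, 2.45 and 3.48. The ratio of the sums, of 19 factors to 9 muscle genes, was between 26.9 and 67.7. *Tead1* (38.6 FPKM), *Mef2d* (20.8) and *Gata6* (20.02) had the highest means of the factors and weigh most in their sum. Since *Tead1* is active in many tissues, the ratio is not one of heart-specific factors to muscle genes.

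*Gata4* had 669, 501 and 706 reads in Ptprz1+/+ and 615, 172 and 428 in libraries labelled Ptprz1-/-. *Tbx5* had 359, 503 and 332, and 330, 492 and 376. *Tead1* and *Srf*, which are active in many tissues, had 5164 to 7401 and 962 to 1343 reads. Another 3 factors had fewer than 10 reads in every library. *Nkx2-5* had 2, 0 and 7 reads in Ptprz1+/+ and 3, 1 and 3 in libraries labelled Ptprz1-/-. *Myocd*, the gene of myocardin, had 3, 2 and 5, and 0, 1 and 2, and *Hand1* had 3 reads in 1 library and 0 in the other 5.

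Of the 16 factors tested by edgeR's quasi-likelihood test, 0 passed the adjusted threshold. An unadjusted p under 0.05 was found for 4, against 2.69% of all genes tested. The list was chosen with earlier results of these data known. DESeq2 called 3 of the factors, *Hand2* (adjusted p = 0.000156), *Tbx2* (adjusted p = 0.00636) and *Tbx20* (adjusted p = 0.0283), against 0.189% of all genes. The call thus depended on the tool. *Hand2* was 53, 106 and 106 reads against 9, 7 and 16, *Tbx20* 83, 121 and 149 against 43, 28 and 39, and *Tbx18* 365, 526 and 401 against 290, 262 and 304. *Tbx2* had 150, 260 and 133 against 580, 334 and 409. In each of these 4 the 3 libraries of a label lay on one side of the other 3, as in *Tnnt2*. This was so in 7.28% of all genes tested. No single library held most of the reads of any of the 4. The 6 mesothelial genes were all higher on average in libraries labelled Ptprz1-/- (median log2 difference 2.40, 0 called and 1 with an unadjusted p under 0.05, *Lrrn4*), and Ptprz1-/- replicate 1, their highest library, was also the highest for *Tbx2*. Their part in the *Tbx2* difference was not tested.

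**Figure D5:**
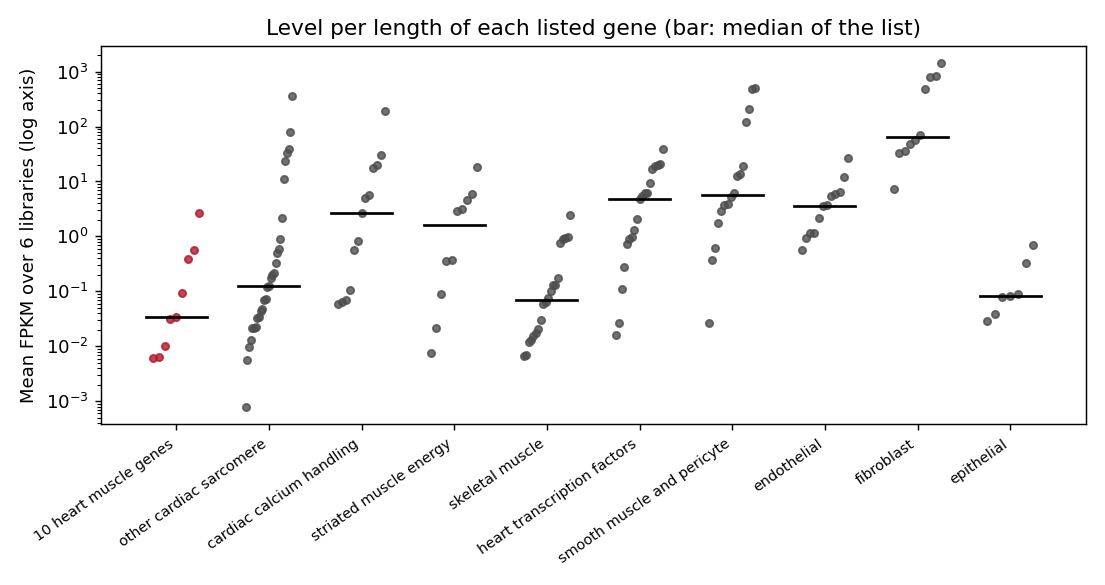
Mean FPKM over 6 libraries of each gene of 10 lists on a log axis, 1 point a gene, with a bar at the median of the list. The heart muscle genes (red) have a median of 0.0335, the heart transcription factors 4.71 and the fibroblast genes 64.5.

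The wider sets of heart muscle genes held both genes read at high levels and genes near 0. Of 30 further cardiac sarcomere genes 29 have a row, 14 were tested, 0 were called and 11 had at least 10 reads in every library, with a median of the mean FPKM of 0.126. *Tpm1* (356 FPKM), a tropomyosin of many cell types, the chaperone gene *Cryab* (79.7) and the filamin gene *Flnc* (38.9) led that list. Its thick filament genes *Myl2* and *Mybpc3* were near 0. *Myl2* had 1, 4 and 2 reads in Ptprz1+/+ and 2, 0 and 2 in libraries labelled Ptprz1-/-. *Mybpc3* had 0, 1 and 2, and 1, 0 and 0. *Myl4*, the atrial essential light chain, had 27 to 70 reads. The lowest unadjusted p of the list was that of the Z-disc gene *Ldb3* (0.0741, log2 difference -1.06, standard error 0.50, edgeR adjusted p = 1.00).

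The calcium handling list also held both, with 13 of 14 genes in the table, 9 tested, 0 called and a median of 2.66 FPKM. *Atp2a2*, the SERCA2 calcium pump, was at 196 FPKM, *Camk2d* at 30.5 and *Asph* at 19.9. *Pln*, which restrains that pump in heart muscle, had 1, 2 and 6 reads in Ptprz1+/+ and 1, 4 and 0 in libraries labelled Ptprz1-/-. *Cacna1c*, the L-type calcium channel, had the lowest unadjusted p (0.0788, log2 difference -0.72, standard error 0.35, edgeR adjusted p = 1.00). Among 13 of 14 ion channel and connexin genes 9 were tested and 0 called (median 0.279 FPKM), and *Gja1*, connexin 43, was highest at 40.2 FPKM, before *Gjc1* (6.23) and *Kcnj2* (2.26). *Hcn2*, a pacemaker channel, had the lowest unadjusted p there (0.165, edgeR adjusted p = 1.00). Among 8 natriuretic peptide genes 4 were tested and 0 called (median 0.620 FPKM), and the receptor genes *Npr2* (25.4 FPKM) and *Npr3* (11.0) and the peptidase gene *Mme* (21.04) were well above *Nppa* (0.0335).

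Of 10 genes of striated muscle energy supply 6 were tested and 0 called (median 1.61 FPKM). *Fabp3*, a fatty acid binding protein, was at 18.7 FPKM, *Eno3* at 5.84 and *Cox7a1*, which had the lowest unadjusted p (0.279, edgeR adjusted p = 1.00), at 4.60, whereas *Ckm*, muscle creatine kinase, had 1 read in all. Skeletal muscle genes were also low, with 20 of 21 in the table, 6 tested, 0 called and a median of 0.0697 FPKM. *Acta1* led them at 2.41 FPKM and was uneven, with 175, 11 and 15 reads in Ptprz1+/+ and 89, 34 and 13 in libraries labelled Ptprz1-/-. *Mylpf*, a fast skeletal light chain, had the lowest unadjusted p of that list (0.0641, log2 difference -0.97, standard error 0.43, edgeR adjusted p = 1.00).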

How the data were processed

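RNA of 6 libraries, 3 labelled Ptprz1+/+ and 3 labelled Ptprz1-/-, was analysed, with groups taken from the sample labels. The authors deposited counts of reads per gene, not normalized, and FPKM, which they derived from those counts, the gene length and the library total. Columns of their own comparison (means, fold changes, p-values) and lists of called genes were not used. The submitters' processing notes name STAR, TopHat, HTSeq, DESeq2 and edgeR and the builds GRCm38 and mm10, without roles.

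Under R 4.3.3, the counts of all genes kept by filterByExpr were scaled by TMM and tested for genotype alone with glmQLFTest of edgeR 4.0.16, adjusted by the Benjamini-Hochberg method at a threshold of 0.05. Levels of a gene between libraries are CPM of TMM-scaled totals, except in the search for genes high in a single library, and levels between genes are FPKM. An exact two-sided permutation test was used for single values. The median log2 difference of tested genes was 0.00. Alternatives were DESeq2 1.42.0, upper-quartile scaling, other filters, each library left out and the replicate number as a block. Leaving out libraries for *Tnnt2* without a filter was added after seeing the data. The fits were checked on simulated data in which 200 genes were changed. Those data had a single dispersion for all genes and no difference in cell content between libraries. The check therefore gives no measure of power in the real libraries.

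Motifs were searched on both strands in RefSeq promoters, transcripts of GENCODE M21 were aligned with minimap2 2.31 (at least 100 bases), and exon overlaps come from GENCODE M21, in which 98.9% of the gene identifiers are found. The CArG box and the MEF2 site are degenerate and are given by name. The 10 genes and the lists were chosen with earlier results of these data known. The rule for named genes took the 10 genes, their paralogs, heart factors, the 3 highest genes per length and the gene of lowest p of each list, and the 3 genes most like each tested one. Not every paralog, factor or marker it took is printed, and marker lists of other cell types are given mainly by their median or sum. *Ptprz1*, *Dnaaf3*, *Gm13054*, *Emcn*, *Tie1*, *Cldn5*, *Erg*, *Nppb*, *Myl2*, *Mybpc3*, *Myl4*, *Pln* and *Ckm* were named outside that rule with their values seen. Another gene is not reported here, and it was left out of the search for genes high in a single library.

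The depth of 14496881 to 17709663 counts per library puts 3 reads at 0.165 to 0.206 CPM, and intervals cover counting error only. No 2 libraries were identical. Each library is a separate isolation of pooled mice.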

Additional observations from a re-analysis of the deposited data

How the results depend on the processing

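*Tnni3* was not called under any alternative. Its log2 difference lay between 0.02 and 0.22 in 9 of them and had the other sign without Ptprz1+/+ replicate 1 (-0.23) and without Ptprz1-/- replicate 3 (-0.10), with leave-one-out values from -0.23 to 0.22. With the replicate number as a block it was 0.09. The same-numbered libraries' deviations from their group means correlated at 0.446, -0.0607 and 0.523. The libraries numbered 1 were each other's best match, as were those numbered 3, while those numbered 2 were not. The numbers thus matched the libraries in part, and the labels state no pairing. The block called 0 genes, with 690 at an unadjusted p under 0.05 (366 without it).

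The count of called genes was 0 under every edgeR setting and 31 with DESeq2, 3 of them heart factors (*Hand2*, *Tbx2* and *Tbx20*), and the count of muscle genes called was 0 throughout. Genes with at least 10 reads in a library numbered 4 of 9, and with at least 50 reads 2. Without length scaling the share of *Ryr2* among calcium release channels was 0.0524% in place of 0.0304%, and that of *Myl7* among light chains 0.0175% in place of 0.0310%. With each library left out, the share of *Myl7* ran from 0.0114% to 0.0373%, that of *Actc1* from 0.00235% to 0.00602% and that of *Myh7* from 0.00199% to 0.00421%. The unfiltered *Tnnt2* difference ran from -4.67 to -1.27 when each library was left out, the smallest without Ptprz1+/+ replicate 3.

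Depth limits the low genes: by a one-sided limit a count of 0 allows up to 3 reads, and 4 muscle genes stayed at 3 reads or fewer in every library.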

Other observations

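A search over the genes was made after the *Tnnt2* values were seen. It asked which genes had at least 50 reads and at least 10 times the CPM of the next library in a single library. The search used CPM of the library totals without TMM scaling. It returned 3 genes for Ptprz1+/+ replicate 3, 9 for Ptprz1+/+ replicate 2, 2 each for Ptprz1-/- replicates 1 and 2, 1 for Ptprz1-/- replicate 3 and 0 for Ptprz1+/+ replicate 1. The 3 were *Tnnt2*, *Scn3a* and *Nrarp*.

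*Scn3a*, a sodium channel of neurons, had 7, 7 and 196 reads in Ptprz1+/+ and 1, 1 and 13 in libraries labelled Ptprz1-/-. *Nrarp*, a target and inhibitor of Notch signalling, had 1, 9 and 119, and 7, 1 and 8. In CPM, Ptprz1+/+ replicate 3 exceeded Ptprz1-/- replicate 3 by 14.4-fold for *Scn3a* and 14.2-fold for *Nrarp*. The endothelial genes *Cldn5*, *Tie1* and *Erg* were 2.13-, 2.59- and 2.79-fold apart. Over the highest of the replicates numbered 1 and 2, it was 29.2-fold higher for *Scn3a* and 15.2-fold for *Nrarp*. For *Cldn5*, *Tie1* and *Erg* that ratio was 36.4-, 33.9- and 18.3-fold. Not all of the 12 endothelial genes were compared in this way. *Vwf*, which was not, had 8 to 377 reads and a log2 difference, Ptprz1-/- minus Ptprz1+/+, of -2.67 (standard error 1.29). The fold values are of 1 library against 1, with no test.

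The 9 genes of Ptprz1+/+ replicate 2 included *Nppc*, the gene of C-type natriuretic peptide, with 3, 54 and 1 reads in Ptprz1+/+ and 0, 4 and 0 in libraries labelled Ptprz1-/-, beside *Camp*, *Mmp9*, *Nos2*, *Cxcl3*, *Cd36*, *Crabp1*, *Lrrc17* and *Gm8113*. *Nppb*, the brain natriuretic peptide gene, was highest in Ptprz1+/+ replicate 1 (11, 0 and 0 reads, and 3, 2 and 0). *Nppa* was at 2 reads or fewer in each of those libraries.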
